A study of Mus musculus with 16 samples.

Results

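The genes described here were Trp53, which encodes the transcription factor p53, and 9 genes tied to it: its inhibitors Mdm2 and Mdm4, and the response genes Ccng1, Bax, Bbc3, Pmaip1, Pidd1, Phlda3 and Sesn2. They were chosen by name, with earlier results of these data known, as 10 of the 53379 genes counted in each library. They were found through the mouse symbol of each Ensembl identifier. RNA was sequenced from cells sorted out of the mouse neocortex at postnatal day 4, and the question was whether p53 and its targets differed between cells with and without Eed, a core subunit of the Polycomb repressive complex 2, and between cell types. The sorted cells, all green cells of mosaic analysis with double markers (MADM) on chromosome 7 driven by Emx1-Cre, fell into 4 groups: Eed+/+ astrocytes (5 libraries), Eed-/- astrocytes (5), Eed+/+ neurons (2) and Eed-/- neurons (3). Each library came from 1 animal, labelled CD1 in the series and of mixed C57BL/6 and CD1 background in the methods.

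Eed+/+ cells came from control-MADM animals and Eed-/- cells from Eed-MADM animals, whose remaining cells were mostly Eed+/-. Green cells of either genotype carried 2 paternal copies of chromosome 7, the chromosome of Bax, Bbc3, Pidd1 and Eed itself. Astrocytes were sorted as GFP+/lacZ+ and neurons as GFP+/lacZ- with a lacZ transgene under the human GFAP promoter, so the neuron gate also admits any green cell in which that promoter is silent.

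In an unstressed cell Mdm2, an E3 ubiquitin ligase, and the related Mdm4 keep p53 scarce and inactive. When p53 is stabilised, after DNA damage for instance, it binds response elements in its target genes and raises their transcription, among them Cdkn1a, which arrests the cell cycle, genes of mitochondrial apoptosis such as Bax, Bbc3 and Pmaip1, and Mdm2, which closes a feedback loop. The control of p53 is largely at the protein level, which a count of mRNA does not read.

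A p53 response element is built from 2 copies of a 10-base unit, the p53 decamer. Promoter windows of 300 bases, 250 before to 50 after each annotated start, were taken from RefSeq (GRCm38.p6) and searched for exact matches to the degenerate p53 decamer, which is its own reverse complement, so that 1 pass covers both strands. Of the 10 genes 9 had windows, 12 in all, and Pmaip1 had none in the table. A decamer was found in 4 of the 12 windows (33.3%), those of Trp53, Mdm2, Ccng1 and Bax, compared with 8.36% of all 32851 windows. The windows of Mdm4, Bbc3, Pidd1, Phlda3 and Sesn2 held no exact match in these 300 bases. The 4 matches are shown on the strand of the gene with 20 bases on either side and the decamer in capitals, since they are the places where the members' own sequence carries the motif. Each lies upstream of its gene in GENCODE, and the one of Bax lies within an intron of the overlapping gene Gm45808.
Trp53 (chr11:69580264-69580313, + strand, decamer beginning 75 bases before the start): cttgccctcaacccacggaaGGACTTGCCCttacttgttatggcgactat
Mdm2 (chr10:117710915-117710964, - strand, 186 bases before): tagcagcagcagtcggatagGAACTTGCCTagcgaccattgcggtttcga
Ccng1 (chr11:40755442-40755491, - strand, 185 bases before): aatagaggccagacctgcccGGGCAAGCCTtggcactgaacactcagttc
Bax (chr7:45467070-45467119, - strand, 201 bases before): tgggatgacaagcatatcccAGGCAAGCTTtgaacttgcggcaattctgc
None of the 12 windows held a pair of exact decamers separated by at most 13 bases, which 0.0731% of all windows did. One window of Cdkn1a did, with 12 bases between the decamers, and is shown because Cdkn1a is the best known p53 target and is described with the members below.
Cdkn1a (chr17:29090886-29090957, + strand, first decamer 73 bases before the start): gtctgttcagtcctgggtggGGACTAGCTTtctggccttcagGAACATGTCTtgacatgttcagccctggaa
A match describes the letters only. Binding of p53 was not measured.

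Gene reads per labelled library ranged from 211736 to 3178529, and 5 of the 15 libraries lay outside the alignment limits (at least 1000000 uniquely aligned reads and 60% unique): Eed-/- astrocyte replicates 1, 3 and 4, Eed+/+ astrocyte replicate 3 and Eed+/+ neuron replicate 2. A count of 3 reads corresponded to between 0.944 and 14.2 CPM (read counts scaled to 1000000 per library) depending on the library, so a gene at 0 in a shallow library was below detection rather than shown absent. Eed itself lay at 0 to 17.3 CPM in Eed-/- astrocytes and 3.71 to 76.2 CPM in Eed+/+ astrocytes, and at 16.4 to 38.0 CPM in Eed-/- neurons and 64.9 and 81.1 CPM in Eed+/+ neurons. The summed level of 10 neuron markers overlapped between the cell types, with a median of 1625 CPM in Eed+/+ neurons against 1287 CPM in Eed+/+ astrocytes, and of 2435 CPM in Eed-/- neurons against 788 CPM in Eed-/- astrocytes. The 10 astrocyte markers had medians of 12856 and 9381 CPM in Eed+/+ and Eed-/- astrocytes and still summed to between 6146 and 8439 CPM in the 5 neuron libraries. The 8 markers of the oligodendrocyte lineage summed to 1257 and 2982 CPM in Eed+/+ neurons and to between 2408 and 3890 CPM in Eed-/- neurons, above the neuron markers in 4 of the 5 neuron libraries, and their part in the genotype differences in neurons was not tested. The names astrocyte and neuron are those of the sort. Eed-/- astrocyte replicate 1 stood apart with 13674 CPM over 8 microglia markers and 8829 CPM over 5 erythroid markers, replicate 3 held 2791 CPM of microglia and 52.0 CPM of erythroid markers, and replicate 4 held 11925 CPM of erythroid markers, the highest of any library, whereas both Eed-/- astrocyte libraries within the limits had 0 of either.

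**Figure D1:**
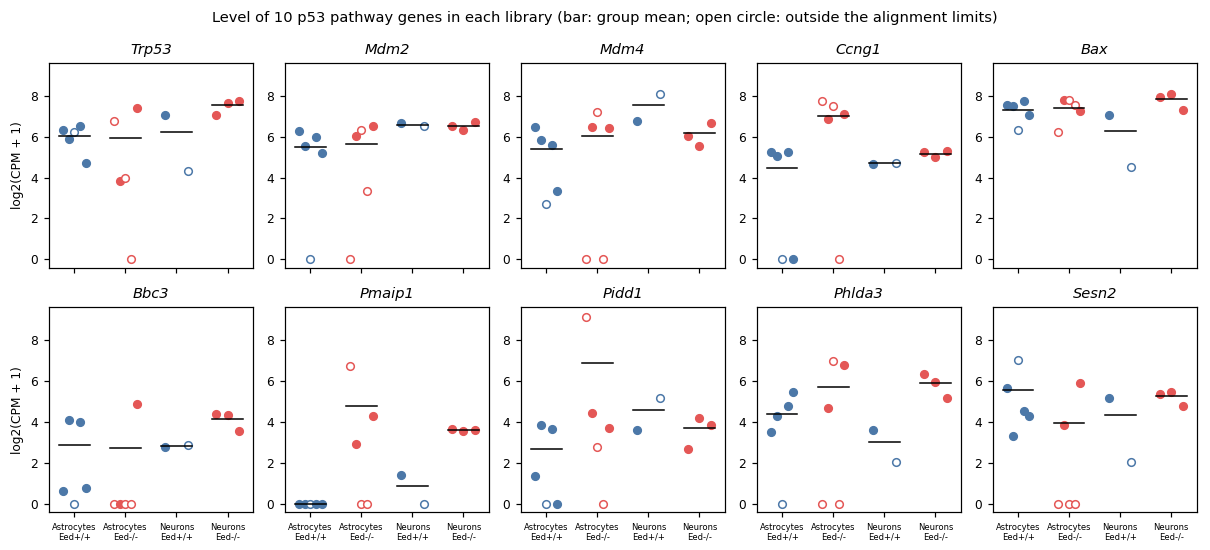
Level of each of the 10 genes in the 15 labelled libraries as log2(CPM + 1), scaled with TMM factors. Each circle is 1 library (blue Eed+/+, red Eed-/-), the bar is the log2 of the group mean plus 1, and open circles are the 5 libraries outside the alignment limits; Pmaip1 has no read in the 5 Eed+/+ astrocyte libraries.

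Levels of different genes were compared per kilobase of exon. Bax, the pore-forming effector of mitochondrial apoptosis, had the highest mean of the 10 genes in all 4 groups, at 101 ± 33.5 CPM per kb (SD, n = 5) in Eed+/+ astrocytes and 143 ± 37.3 (SD, n = 3) in Eed-/- neurons. In Eed+/+ astrocytes Trp53 came next at 16.1 ± 6.18, and the gap between the Bax and Trp53 levels was 2.53 times the larger SD. Below Bax no neighbours in the order of that group, from Trp53 down to Pidd1 at 1.17 ± 1.46 and Pmaip1 at 0, were further apart than the larger of their SDs. In Eed+/+ neurons the 2 libraries differed so much that the gap from Bax to Mdm2, the next in order, was 0.609 times the larger SD. In Eed-/- neurons Trp53 (45.3 ± 10.7) and Phlda3 (38.1 ± 14.8) followed in that order, within their spread of each other.

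**Figure D2:**
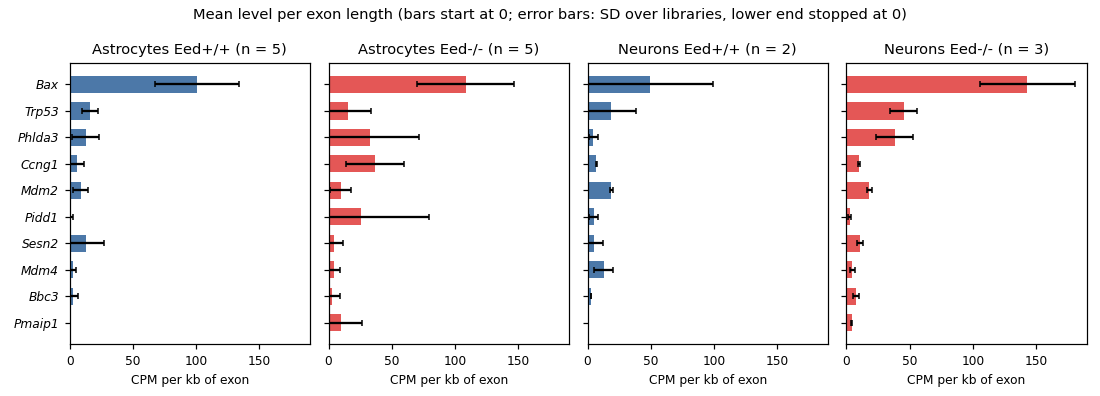
Mean level of the 10 genes per kilobase of exon (CPM per kb) in the 4 groups, with bars from 0 and error bars giving the SD over libraries, stopped at 0 on the lower side. Bax has the longest bar in each group, from 49.2 CPM per kb in Eed+/+ neurons to 143 in Eed-/- neurons.

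Between genotypes, none of the 10 genes passed the test in either cell type. Nor did Eed, the targeted gene, by edgeR. Its difference was -2.48 ± 1.68 log2 (SE, adjusted p = 0.9999) in astrocytes and -1.42 ± 0.71 (adjusted p = 0.694) in neurons. The absence of a call therefore does not show that a gene was unchanged. In astrocytes 8 of the 10 passed the filter on low counts (Bbc3 and Pmaip1 did not), and 0 of these 8 were called at an adjusted p of 0.05 by edgeR's quasi-likelihood test, against 0.0% of the 8956 genes tested. Their adjusted p was 0.9999 each, and the count was also 0 at 0.2, which the study applied to its astrocyte comparison. One of the 8 had an unadjusted p under 0.05 (Pidd1), against 1.21% of all genes. With DESeq2 1 gene, Pmaip1, was called, and with limma-voom 0. In neurons all 10 were tested and 0 were called, against 0.0% of 11862 genes, with 3 at an unadjusted p under 0.05 (Mdm4, Pmaip1 and Phlda3) against 7.27% of all genes, and DESeq2 and limma-voom called 0 as well. Here, as in any bulk sample, fewer cells that express a gene and less RNA of it per cell cannot be told apart.

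Read without the threshold, the fitted differences in astrocytes (Eed-/- minus Eed+/+) had a median of 0.47 log2 over the 8 genes, with 6 above 0, beside a median of -0.54 over all genes tested, 28.6% of which lay above 0. Within the alignment limits all 10 genes could be fitted and lay above 0, with a median of 0.80 beside -0.02 over all genes. Pmaip1, with no read in the Eed+/+ astrocyte libraries, passed the filter there only through the Eed-/- libraries, so its sign was fixed in advance. Leaving out 1 library gave medians from 0.15 (without Eed-/- replicate 3, beside -0.59 over all genes) to 0.87 (without Eed+/+ replicate 1, beside -0.46). In neurons the median over the 10 genes was 0.96, with 7 above 0, beside 0.15 and 55.4% for all genes. It was 0.47 without Eed+/+ replicate 2, the library outside the limits (beside 0.07 over all genes), and 2.20 without Eed+/+ replicate 1 (beside 0.66). The level of every Eed-/- neuron library exceeded that of both Eed+/+ neuron libraries for 6 of the 10 genes (Trp53, Ccng1, Bax, Bbc3, Pmaip1 and Phlda3), against 15.6% of all genes tested, and lay below both for 1 (Mdm4), against 7.72%. Of the 6, Bbc3 (11 and 2 reads in the controls), Pmaip1 (3 and 0) and Phlda3 (21 and 1) were too scarce to pass the filter on the controls alone. They entered with the Eed-/- libraries, where they were high, so the filter favoured their being counted. In astrocytes the groups overlapped for each of the 8 genes tested, while 1.73% of all genes did not overlap.

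**Figure D3:**
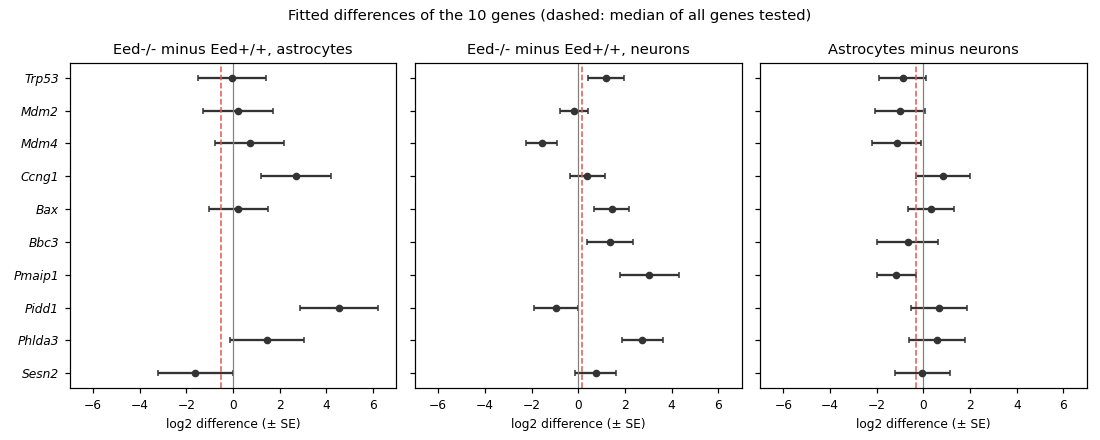
Fitted log2 differences (± SE) of the 10 genes between genotypes in astrocytes (8 genes tested) and neurons, and between cell types (astrocytes minus neurons). The dashed line is the median of all genes tested (-0.54, 0.15 and -0.34), and no gene passed an adjusted p of 0.05 in any panel.

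Trp53 itself (chr11:69580359-69591873, + strand) was read in 14 of the 15 libraries. In Eed+/+ astrocytes it lay at 78.5, 57.5, 74.3, 89.9 and 25.6 CPM and in Eed-/- astrocytes at 107, 13.3, 14.8, 0 and 169 CPM. The Eed-/- libraries thus lay on both sides of the controls, and the fitted difference was -0.04 ± 1.45 log2 (SE), with a sign that changed with the scaling. In neurons it was 131 and 18.7 CPM in Eed+/+ cells and 135, 199 and 217 CPM in Eed-/- cells, a difference of 1.18 ± 0.76 (adjusted p = 0.749). The lowest Eed-/- neuron library exceeded Eed+/+ replicate 1 by only a few CPM, and the distance to the control mean came largely from Eed+/+ replicate 2, the library outside the limits. Without that library the difference was 0.46.

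Of the inhibitors, Mdm2 (chr10:117688875-117710758, - strand), itself a p53 target, was the most even of the genes in neurons, at 100.3 and 90.5 CPM in Eed+/+ cells and 92.3, 80.6 and 103 CPM in Eed-/- cells. Its difference there was -0.17 ± 0.60 (adjusted p = 0.930), and in astrocytes 0.23 ± 1.501. Mdm4 (chr1:132959484-133030561, - strand), which binds p53 but lacks ligase activity of its own, was at 107 and 268 CPM in Eed+/+ neurons and 64.1, 46.2 and 101 CPM in Eed-/- neurons. All 3 Eed-/- libraries were below both controls, with a difference of -1.56 ± 0.67 (adjusted p = 0.670 by edgeR), which was -0.64 without Eed+/+ replicate 2. In astrocytes Mdm4 ranged from 5.57 to 88.5 CPM in Eed+/+ and from 0 to 148 CPM in Eed-/- libraries, and the groups overlapped, with a difference of 0.72 ± 1.49 that was 0.11 without Eed-/- replicate 3.

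Ccng1 (chr11:40748552-40755311, - strand), which encodes cyclin G1, a p53-induced partner of a protein phosphatase, had the smallest exact permutation p of the 10 genes in astrocytes. Its levels were 37.7, 31.7, 0, 36.4 and 0 CPM in Eed+/+ astrocytes and 215, 114, 177, 0 and 137 CPM in Eed-/- astrocytes. In all, 4 of the 5 Eed-/- libraries lay above every control, and the fifth, replicate 4, was the shallowest library, with 0 reads. The fitted difference was 2.69 ± 1.505 (adjusted p = 0.9999), and the two-sided exact permutation test of the mean levels gave p = 0.0476, or 0.923 adjusted over 24464 genes. The 2 highest of these values came from the libraries with microglia markers, replicates 1 and 3, and the part of those cells in the difference was not tested. Within the alignment limits the difference was 2.24, and both Eed-/- libraries (114 and 137 CPM) were above all 4 Eed+/+ libraries (0 to 37.7 CPM). In neurons the levels were 24.7 and 25.0 CPM in Eed+/+ cells and 36.8, 30.8 and 37.8 CPM in Eed-/- cells, a narrow spread around a difference of 0.39 ± 0.75 (adjusted p = 0.869).

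Among the genes of apoptosis, Bax (chr7:45461697-45466898, - strand) had reads in every labelled library. It lay between 79.8 and 214 CPM in Eed+/+ astrocytes and between 74.5 and 221 CPM in Eed-/- astrocytes, so the ranges nearly coincided (difference 0.23 ± 1.27, and 0.10 to 0.44 with 1 library left out). In neurons it was 133 and 21.8 CPM in Eed+/+ cells against 246, 271 and 159 CPM in Eed-/- cells, a difference of 1.43 ± 0.76 (adjusted p = 0.716), or 0.73 without Eed+/+ replicate 2. Its exons share 192 bases with Gm45808 on the same strand, and reads there could not be assigned to either gene.

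Bbc3 (chr7:16308393-16318205, + strand), which encodes the BH3-only protein Puma, was scarce. In Eed+/+ astrocytes it was at 0.524, 16.1, 0, 14.8 and 0.693 CPM, and in Eed-/- astrocytes 4 libraries had no read and replicate 5 had 28.3 CPM. In neurons the 2 controls were close to each other at 5.90 and 6.24 CPM, and the Eed-/- libraries were at 19.6, 19.5 and 10.7 CPM. The neuron groups did not overlap, but the difference of 1.36 ± 0.98 did not pass (adjusted p = 0.761).

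Pmaip1 (chr18:66458533-66465565, + strand), which encodes the BH3-only protein Noxa, was read in Eed-/- but in no Eed+/+ astrocyte library. It had no read in any of the 5 Eed+/+ astrocyte libraries, which held 9780680 gene reads in all, and 63, 10, 0, 0 and 18 reads in Eed-/- replicates 1 to 5, or 107, 6.65, 0, 0 and 18.2 CPM. Taking 3 reads over the control group as its floor, Pmaip1 was at least 76.4-fold higher per gene read in Eed-/- astrocytes, and at least 26.1-fold higher without replicate 1. Replicates 3 and 4, the other Eed-/- astrocyte libraries with microglia or erythroid markers, had no read of Pmaip1. Replicates 2 and 5, which had no read of those markers, held the other 28 reads, and within the alignment limits, where they are the Eed-/- group, Pmaip1 was at least 30.1-fold higher. The gene did not pass the filter for the main test, and the two-sided exact permutation test gave p = 0.167, or 1.0 adjusted over 24464 genes. DESeq2 called it (adjusted p = 0.0434, with 0.0927% of 11870 genes called higher), as did a single edgeR fit over all 15 libraries (adjusted p = 0.0380, with 0.314% of 13367 genes called higher). In that single fit and within the limits it passed the filter only through Eed-/- libraries, where it was high. By contrast, edgeR with no filter on low counts gave an adjusted p of 0.197 and edgeR within the limits 0.9998. Of the 24464 genes with a read in astrocytes 28, or 0.114%, were read in 3 or more Eed-/- and in no Eed+/+ library, and Pmaip1 was the member among them, a pattern singled out after its values were seen.

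In neurons Pmaip1 had 3 and 0 reads in the Eed+/+ libraries and 15, 21 and 18 reads in the Eed-/- libraries. The 3 Eed-/- levels were almost equal, at 11.7, 10.8 and 11.3 CPM, above 1.61 and 0 CPM in the controls. Per gene read this was a ratio of 7.77. Its exact 95% counting interval, 2.52 to 38.9, takes reads as independent and leaves out the spread between libraries. The fitted difference of 3.05 ± 1.28, which includes that spread, did not pass (adjusted p = 0.670 by edgeR). With 3 against 2 libraries the exact permutation test cannot go below p = 0.2, the value it gave here.

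Pidd1 (chr7:141438113-141444025, - strand), a death domain protein of the caspase-2 activating complex, had the largest fitted difference of the 8 genes tested in astrocytes, 4.55 ± 1.67 (adjusted p = 0.9999). It rested on 1 library: Eed-/- replicate 1 was at 550 CPM, the other 4 Eed-/- libraries between 0 and 20.6 CPM and the Eed+/+ libraries between 0 and 13.4 CPM. Without that library the difference was 0.91 (adjusted p = 0.9999). In neurons Pidd1 was at 11.3 and 34.3 CPM in Eed+/+ cells and 5.48, 16.9 and 13.2 CPM in Eed-/- cells, with overlapping groups (difference -0.96 ± 0.94, and 0.07 without Eed+/+ replicate 2).

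Phlda3 (chr1:135766119-135769136, + strand), a p53 target that restrains Akt signalling at the membrane, had the smallest p of the 10 genes in neurons. It was at 11.3 and 3.12 CPM in Eed+/+ cells and 81.4, 61.6 and 35.3 CPM in Eed-/- cells. The lowest Eed-/- library was above the higher control, with a fitted difference of 2.75 ± 0.88 (adjusted p = 0.644). Without Eed+/+ replicate 2, with 1 control library left, the difference was 2.36. In astrocytes Phlda3 was at 10.5, 18.3, 0, 26.3 and 43.6 CPM in Eed+/+ and 0, 24.6, 124, 0 and 108 CPM in Eed-/- libraries. These groups overlapped, and the difference was 1.45 ± 1.57, or 0.77 without Eed-/- replicate 3, a library with microglia markers, and 0.96 without Eed-/- replicate 5.

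Sesn2 (chr4:132492032-132510501, - strand), a stress-induced inhibitor of mTORC1 signalling, had the lowest fitted difference of the 8 genes tested in astrocytes, -1.61 ± 1.61. Eed+/+ astrocytes were at 48.7, 8.96, 128, 22.1 and 18.7 CPM, and Eed-/- astrocytes at 0, 13.3, 0, 0 and 59.7 CPM. The 3 Eed-/- libraries at 0 were those outside the limits, and within the limits the difference was 0.58. It was -0.65 without Eed+/+ replicate 3 and -3.59 without Eed-/- replicate 5. In neurons it was 34.9 and 3.12 CPM in Eed+/+ cells and 40.7, 43.6 and 26.4 CPM in Eed-/- cells, which overlapped. The difference of 0.74 ± 0.87 was 0.06 without Eed+/+ replicate 2 and 3.39 without Eed+/+ replicate 1.

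One library decided the neuron count. When Eed+/+ neuron replicate 1 was left out, so that the only control was the library outside the limits, 4 of the 10 genes were called (Trp53, Bax and Phlda3 higher, Mdm4 lower), against 20.6% of the 12635 genes tested. In that fit the spread comes from the 3 Eed-/- libraries alone, and the lone control is assumed to vary as they do. When Eed+/+ replicate 2 was left out instead, which also leaves 1 control, 0 of the 10 were called.

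In the comparison of astrocytes with neurons, 0 of the 10 genes were called, against 0.015% of 13367 genes, and 0 had an unadjusted p under 0.05. DESeq2 called 0 as well. Trp53 (-0.89 ± 1.02 log2), Mdm2 (-1.01 ± 1.06), Mdm4 (-1.15 ± 1.03) and Pmaip1 (-1.17 ± 0.83) had fitted values below 0, that is lower in astrocytes, and Ccng1 (0.83 ± 1.16) was the furthest above 0. The median over the 10 genes was -0.36, beside -0.34 over all genes. Whether the effect of genotype differed between the cell types was tested as an interaction, and 0 of the 10 genes were called, against 0.0524% of genes. Pidd1 (5.34 ± 2.38) and Pmaip1 (4.81 ± 2.38) had an unadjusted p under 0.05 (adjusted p = 0.9999 each), both towards a larger difference in astrocytes, and both with their highest level in Eed-/- astrocyte replicate 1.

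The wider set of p53 targets held 26 further genes, of which 17 were tested in astrocytes and 23 in neurons. None passed in either with the main test, but Cdkn1a passed in neurons with DESeq2 and with edgeR without the filter on low counts. In neurons 4 had an unadjusted p under 0.05, each higher in Eed-/- cells (Cdkn1a, Ak1, Eda2r and Aen), against 2.12% of all genes tested that were higher at that limit. Every Eed-/- neuron library exceeded both controls for 10 of the 23, against the 15.6% of all genes given above, and for none was it below both. Some of these, such as Eda2r (3 and 0 reads in the controls) and Aen (10 and 0), likewise passed the filter only through the Eed-/- libraries. The median difference of the list was 0.74 in neurons (16 of 23 above 0) and -0.23 in astrocytes (5 of 17 above 0), beside 0.15 and -0.54 over all genes. Within the limits it was 0.47 in neurons (19 of 26 above 0) and 0.40 in astrocytes (20 of 25 above 0), beside 0.07 and -0.02. Eda2r, with no read in the Eed+/+ astrocyte libraries, passed the filter in those astrocytes only through the Eed-/- libraries, which fixed its sign. Leaving out 1 library moved the list median from 0.44 (without Eed-/- replicate 2) to 1.58 (without Eed+/+ replicate 1) in neurons. In astrocytes it moved from -1.05 (without Eed-/- replicate 5) to 0.06 (without Eed-/- replicate 4). In astrocytes the smallest p values were those of Gadd45a (-2.30 ± 1.60), Triap1 (-1.83 ± 1.63) and Ercc5 (1.72 ± 1.54), with adjusted p = 0.9999 each.

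Cdkn1a, the cell cycle inhibitor p21, had the smallest p of all the listed p53 targets. In neurons it was at 20.4 and 6.24 CPM in Eed+/+ cells and 226, 208 and 234 CPM in Eed-/- cells. The 3 Eed-/- libraries lay within a narrow range an order of magnitude above the controls, with a difference of 3.83 ± 0.76 (adjusted p = 0.641 by edgeR). The call differed between the alternatives: Cdkn1a was called by DESeq2 (adjusted p = 0.000387; 0.0901% of 12207 genes were called higher) and by edgeR with no filter on low counts (adjusted p = 0.00529; 0.0507% of 23689 genes), and not by limma-voom (adjusted p = 0.242). Without Eed+/+ replicate 1 the adjusted p was 0.0039, and without replicate 2 it was 0.230. In astrocytes the same scale showed 161 and 210 CPM in Eed-/- replicates 2 and 5 and no read in the 3 Eed-/- libraries outside the limits, against 0 to 35.1 CPM in Eed+/+ libraries. Within the limits its fitted difference was 3.94 (adjusted p = 0.9998).

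Eda2r, a death receptor of the TNF receptor family induced by p53, was scarcer. It was at 20.3, 12.3 and 22.03 CPM in Eed-/- neurons against 1.61 and 0 CPM in Eed+/+ neurons (3.72 ± 1.22, adjusted p = 0.644). In astrocytes it had reads only in Eed-/- replicates 2 and 5 (13.3 and 27.3 CPM), and was at least 39.5-fold higher per gene read over the group than the 3-read floor of the controls, or at least 22.6-fold without replicate 5 (two-sided exact permutation p = 0.444, adjusted 1.0). Aen, a p53-induced exonuclease, was at 42.2, 42.6 and 8.81 CPM in Eed-/- neurons against 5.37 and 0 CPM (2.97 ± 1.14, adjusted p = 0.668), and Ak1, an adenylate kinase, at 93.9, 119 and 53.5 CPM against 19.3 and 6.24 CPM (2.57 ± 0.80, adjusted p = 0.644). For Aen and Ak1 the astrocyte groups overlapped.

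**Figure D4:**
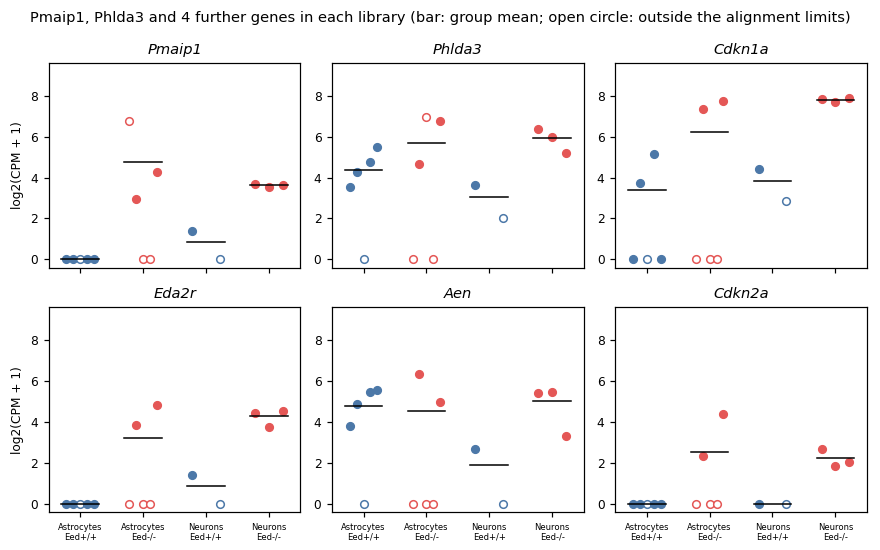
Levels of Pmaip1, Phlda3, Cdkn1a, Eda2r, Aen and Cdkn2a in the 15 labelled libraries as log2(CPM + 1), with the log2 of the group mean plus 1 as a bar and open circles for libraries outside the alignment limits. In neurons each of the 6 genes lies higher in all 3 Eed-/- libraries than in both Eed+/+ libraries, a pattern that 15.6% of all genes tested share. The 6 were chosen in part after their values were seen, and Mdm2, Pidd1 and Sesn2, not shown here, overlap in neurons. In astrocytes Pmaip1, Eda2r and Cdkn2a have no read in the Eed+/+ libraries.

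Within the alignment limits, both Eed-/- astrocyte libraries exceeded all 4 Eed+/+ libraries for 2 of the 10 genes, Ccng1 and Pmaip1, against 4.24% of the 22980 genes with a read there. Of the 26 other p53 targets 5 did so (Cdkn1a, Eda2r, Tnfrsf10b, Zmat3 and Trp53inp1), while for 1, Gadd45a, both lay below all 4 controls, against 4.82% of genes. Among 16 regulators with a read 3 were above (Cdkn2a, Hipk2 and Rchy1) and 1 below (Cop1), and among the 16 apoptosis genes 2 were above (Apaf1 and Diablo) and 3 below (Bcl2, Bid and Xiap). These counts were made after the values were seen. With 2 against 4 libraries the exact permutation test cannot go below p = 0.133.

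Of 17 regulators of p53, 9 were tested in astrocytes and 14 in neurons, and none passed. Their median differences were 0.26 in astrocytes and -0.16 in neurons. The smallest p values belonged in astrocytes to Crebbp (-1.69 ± 1.35), Rchy1 (1.28 ± 1.39) and Atm (1.47 ± 1.61), and in neurons to the deubiquitinase Usp7 (-1.83 ± 0.92, adjusted p = 0.698), the acetyltransferase Ep300 (-1.57 ± 0.82, adjusted p = 0.714) and the ubiquitin ligase Cop1 (-1.49 ± 0.89, adjusted p = 0.739). Cdkn2a, a known Polycomb target whose alternative product Arf inhibits Mdm2, did not pass the filter. In neurons it had 7, 5 and 5 reads in Eed-/- libraries and 0 in both controls, at least 2.45-fold higher per gene read than the 3-read floor (two-sided exact permutation p = 0.2, the smallest possible, adjusted 1.0). In astrocytes its level was 3.99 and 20.2 CPM in Eed-/- replicates 2 and 5 and 0 in the other 8 libraries.

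Of 16 genes of mitochondrial apoptosis, 13 were tested in astrocytes and all 16 in neurons, and none passed. Their medians, -0.43 in astrocytes and 0.30 in neurons, lay near those of all genes. The caspase inhibitor Xiap had the smallest p in both (-2.16 ± 1.65 in astrocytes, and -1.50 ± 0.79 with an adjusted p of 0.715 in neurons), followed in astrocytes by Bcl2l1 (-1.65 ± 1.42) and Apaf1 (1.73 ± 1.55) and in neurons by Bok (1.44 ± 0.85) and Bid (1.54 ± 1.09).

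**Figure D5:**
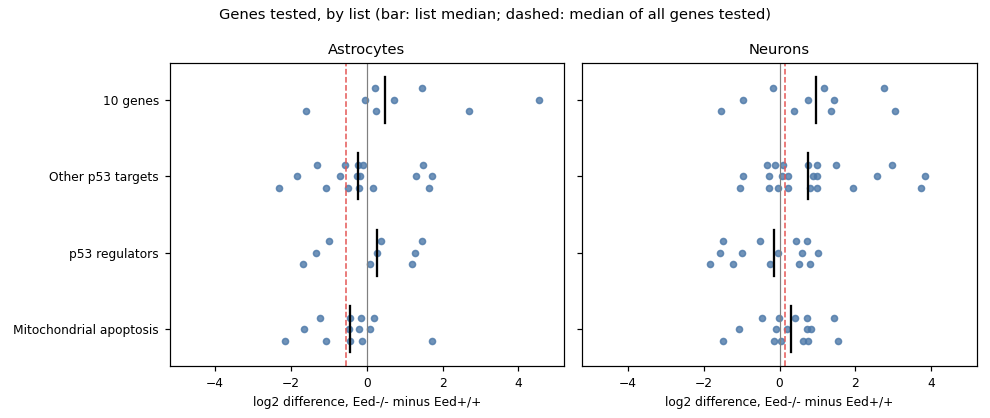
Fitted log2 differences between genotypes (Eed-/- minus Eed+/+) of every tested gene in the 4 lists, in astrocytes and in neurons. The black bar is the median of the list and the dashed line that of all genes tested (-0.54 and 0.15), and in neurons the medians of the 10 genes and of the other p53 targets are 0.96 and 0.74.

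Over the 15 libraries the genes whose level ordered the libraries most like Trp53 were Serbp1, Calm2 and Rflnb (Spearman's rho 0.943, 0.936 and 0.908), and for Ccng1 they were Lrch1, Nudt5 and Coro1a (0.901, 0.835 and 0.832). These are the highest of 13367 genes and describe these libraries only, which share differences in depth and group.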

How the data were processed

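The deposited files hold raw counts of reads per gene, which the authors made by full-length cDNA synthesis from few sorted cells and alignment with STAR to mm10 (GRCm38). The release of the annotation is not given in the labels or methods. Unstranded counts were used, so that a gene and its antisense partner cannot be told apart. The 4 lines of totals that name no gene stayed out of library sizes, and 8.55% to 71.6% of uniquely aligned reads fell outside genes. Symbols and coordinates came from GENCODE mouse release 21 (53274 of 53379 identifiers matched). The 10 genes and all lists were chosen with earlier results of these data known.

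Of 16 libraries 1 had conflicting labels and entered no comparison. All other 15 were kept, although the study set aside some that its text does not name. Replicates within a group are separate animals. Astrocytes and neurons were gated from the same kind of sort, so an astrocyte and a neuron library may come from the same animal. The labels do not settle this, and the main fits for cell type and interaction took all 15 libraries as independent. Counts were tested with edgeR 4.0.16 (quasi-likelihood, TMM, filterByExpr, R 4.3.3) over all genes with Benjamini-Hochberg adjustment, in astrocytes, in neurons and over 15 libraries for cell type and interaction. Levels are TMM-scaled CPM, and single genes were also compared by a two-sided exact permutation test of mean CPM over all genes with a read. Named were all 10 genes, Eed, Cdkn1a and Cdkn2a, every called list gene or otherwise the 3 with the smallest p, and the 3 genes most like Trp53 and Ccng1. Ak1, Eda2r and Aen were named after their values were seen where they fall outside that rule. Alternatives were DESeq2 1.42.0, limma 3.58.1, other scaling and filters, fewer libraries and a replicate block. Scripts were tested on simulated data. Intervals and floors cover counting error only.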

Additional observations from a re-analysis of the deposited data

Results flagged for a closer look

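In groups of 5, a library whose gap to the nearest of the others exceeds 0.710 of the group's range stands apart by Dixon's criterion. Chance meets it in about 1 in 20 groups of normally distributed values. The CPM values here are skewed, with libraries below detection at 0, so that rate does not apply to them. Where all but 1 library of a group have no read, as for Bbc3, whose other 4 libraries were at 0, any level meets the criterion. It was met 4 times over 19 groups with reads, each time in Eed-/- astrocytes, by Pidd1 at 550 CPM and Pmaip1 at 107 CPM in replicate 1, and by Bbc3 at 28.3 CPM and Sesn2 at 59.7 CPM in replicate 5. Replicate 1 held 13674 CPM of microglia and 8829 CPM of erythroid markers and replicate 5 none of either, and the part of those cells in the values was not tested.

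The library without a group, labelled as Eed-/- with both cell types named, had 43 reads of Bax and no read of the other 9 genes. Its Bax level of 194 CPM without a TMM factor (exact 95% counting interval 141 to 262) lay just above the highest Eed+/+ library (193 CPM), a gap far within the counting error.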

How the results depend on the processing

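The number of the 10 genes called between genotypes in astrocytes was 0 and became 1 (Pmaip1) with DESeq2 and 1 with a single fit over all 15 libraries. In neurons it ranged from 0 to 4 when 1 library was left out, with 4 only without Eed+/+ replicate 1. The cell type and interaction counts and the count of exact permutation tests of the 10 genes stayed at 0 under every alternative run. Among the other lists, Cdkn1a was called in neurons with DESeq2 and with no filter, and without Eed+/+ neuron replicate 1 it was 1 of 5 called among 25 other p53 targets (20.0%), beside 4 of 16 apoptosis genes (25.0%) and 20.6% of all genes. Over all genes, 0 calls in astrocytes became 12 with DESeq2, 46 with the single fit, 5 with no filter and 24 with a mean count above 10, and 1 without Eed+/+ replicate 3. In neurons 0 became 56 with DESeq2, 127 with no filter and 3 with the single fit, 1 within the limits, and 2601 and 15 without Eed+/+ and Eed-/- replicate 1. For cell type 2 became 5 with DESeq2, 1 with a mean count above 10, and 0 with limma-voom, with no filter, within the limits and with the replicate block. For the interaction 7 became 21 with RLE, 3 with DESeq2, 2 with no filter and with the replicate block, and 0 with limma-voom and within the limits. Of 525 alternative values of single genes 46 changed sign. Trp53 in astrocytes became 0.38 (DESeq2), 0.40 (RLE size factors) and 0.54 (within the alignment limits), and ranged from -0.71 to 0.31 in the leave-one-out fits. Within the limits the values were also 0.58 for Sesn2 in astrocytes, 0.07 for Pidd1 in neurons, and 0.065 for Bbc3 and -0.16 for Pidd1 between cell types. With limma-voom they were -0.0085 for Bax in astrocytes, and -0.48 for Pidd1 and -0.038 for Phlda3 between cell types. Sesn2 between cell types was 0.052 with DESeq2 and 0.050 with RLE. Leave-one-out fits ranged from -0.13 to 0.54 for Mdm2 in astrocytes, from -1.64 to 0.07 for Pidd1 in neurons and, between cell types, from -1.31 to 0.11 for Trp53, -0.082 to 1.23 for Bax, -2.17 to 0.61 for Pmaip1, -1.09 to 1.13 for Pidd1 and -0.9997 to 1.26 for Sesn2. The mean CPM difference of Bbc3 in astrocytes, -0.74, was 0.048 without the TMM factor, 6.15 within the limits and -6.41 to 1.67 in leave-one-out comparisons. The cause was not tested.

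The labels give the groups shared replicate numbers. Deviations from the group means of same-numbered Eed+/+ and Eed-/- astrocyte libraries correlated at -0.04 to 0.17. Of these pairs 1 of 5 exceeded 0.1, beside 2 of 20 with different numbers. Of the same-numbered Eed-/- astrocyte and neuron libraries 1 of 3 did (up to 0.13), beside 3 of 12. The deviations of the 2 Eed+/+ neuron libraries are equal and opposite, so correlations with them cannot show pairing. Those were -0.05 to -0.01 with same-numbered Eed+/+ astrocytes and -0.26 and 0.10 with same-numbered Eed-/- neurons. The numbers were not taken as pairs, and the check does not settle whether they mark shared animals. With the replicate block 0 of the 10 genes were called in each comparison, and Mdm2 (-0.050) and Phlda3 (-0.24) in astrocytes and Pidd1 (-0.37) and Phlda3 (-0.27) between cell types changed sign. RLE scaling moved the median of all genes in astrocytes by 0.16 log2, with 7 rather than 6 of 8 genes above 0 and 7 above that median under both. DESeq2, which also fits genes of lower counts, moved it by 0.64 to 0.10, with 9 of 10 genes above 0, 8 above that median and a median of 0.67 over the 10. Depth limits the genes near or below 3 reads, above all in the libraries outside the limits.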
